A study of Homo sapiens with 45 samples.

Results

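The 10 genes HIF1A, CA9, VEGFA, NDRG1, EGLN1, EGLN3, BNIP3, BNIP3L, ANKRD37 and ADM were chosen by symbol, with earlier results of these data known. They were taken because HIF1A encodes the oxygen-regulated subunit of hypoxia-inducible factor 1 and the others are known as targets of hypoxia-inducible factors (HIFs). The lists of related genes used below were also chosen with earlier results known. All 10 were among the 28278 gene names of the count table of 8 libraries, and all 10 passed the filter on low counts, as did 13933 names in all. The cells were of the established line HCT116, from a human colon cancer, and the labels name no hypoxia treatment and no oxygen level. HNRNPK, which encodes an RNA- and DNA-binding protein of the nucleus, was depleted with small interfering RNA (siRNA) at 25 nM for 72 hours. RNA was sequenced from 4 libraries of HNRNPK siRNA (siHNRNPK), 4 of a nontargeting control siRNA (siNTC5) and 2 of a nontargeting control named Scramble, and 7 lists of chromatin domains came from the same cell line and treatments. The labels do not say whether replicates were separate cultures, so p-values measure only the spread between these libraries, which may be technical.

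HIF-1 is a dimer of HIF-1α, the product of HIF1A, and its partner ARNT. In oxygenated cells prolyl hydroxylases, among them the products of EGLN1 and EGLN3, mark HIF-1α for capture by VHL and destruction, so the protein is controlled largely after translation and HIF1A mRNA is not a measure of it. When oxygen falls the dimer binds short DNA motifs, the hypoxia response elements, and raises genes of glucose use, acid handling, mitophagy and vessel growth. In colon cancer cells CA9 and NDRG1 are widely used readouts of this programme. No protein, oxygen level or HIF binding was measured here.

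Most of the 10 genes were lower after HNRNPK siRNA. Of the 10, 9 fell against siNTC5, by edgeR's quasi-likelihood test with adjusted p under 0.05, and 5 of them (ANKRD37, NDRG1, EGLN3, BNIP3 and CA9) fell by at least 2-fold. Of all 13933 genes tested 36.1% were lower and 8.28% were lower by at least 2-fold. VEGFA did not pass the test. HIF1A mRNA fell to 83.0% of the siNTC5 mean.

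The letters of the HIF motif, ACGTG or GCGTG on either strand, were looked for in RefSeq promoter windows of GRCh38.p14 running from 250 bases before to 50 bases after the gene start. A window was matched for 7 of the 10 genes, and HIF1A had 2 windows. The stretches before the start are shown for the genes whose RNA fell by at least 2-fold and that had a window, because they differ in how many of these letters they hold although all 4 genes fell. Each is printed 5′ to 3′ along the gene's strand, with the matches in capitals. A match to the opposite strand reads CACGT or CACGC, and CACGTG holds ACGTG on both strands. ANKRD37 lies at chr4:185396591-185396840 on the plus strand, BNIP3 at chr10:131981924-131982173 on the minus strand, CA9 at chr9:35673678-35673927 on the plus strand and EGLN3 at chr14:33951075-33951324 on the minus strand.

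ANKRD37: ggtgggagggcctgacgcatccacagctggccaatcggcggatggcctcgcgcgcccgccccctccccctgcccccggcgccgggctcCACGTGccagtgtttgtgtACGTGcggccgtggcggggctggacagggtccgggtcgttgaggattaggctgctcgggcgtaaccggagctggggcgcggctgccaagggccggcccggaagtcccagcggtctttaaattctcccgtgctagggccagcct
BNIP3: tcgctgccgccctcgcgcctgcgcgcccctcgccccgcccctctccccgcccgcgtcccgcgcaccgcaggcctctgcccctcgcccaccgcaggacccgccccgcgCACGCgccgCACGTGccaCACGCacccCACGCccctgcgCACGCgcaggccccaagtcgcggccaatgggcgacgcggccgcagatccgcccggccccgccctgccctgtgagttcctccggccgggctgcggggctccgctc
CA9: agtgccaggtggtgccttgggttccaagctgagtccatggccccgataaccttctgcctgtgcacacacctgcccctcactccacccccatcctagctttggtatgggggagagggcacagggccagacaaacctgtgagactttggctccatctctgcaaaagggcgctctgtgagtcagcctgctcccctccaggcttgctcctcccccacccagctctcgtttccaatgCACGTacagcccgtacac
EGLN3: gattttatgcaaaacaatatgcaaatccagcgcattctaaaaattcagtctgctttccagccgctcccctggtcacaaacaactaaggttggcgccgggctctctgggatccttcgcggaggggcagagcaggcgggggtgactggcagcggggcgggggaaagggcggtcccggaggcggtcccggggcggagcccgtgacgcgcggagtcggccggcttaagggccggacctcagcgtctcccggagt

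The ANKRD37 stretch held 3 matches to ACGTG, of which the overlapping pair began 162 and 161 bases before the start and the other began 143 bases before it. The BNIP3 stretch held 2 matches to ACGTG, which overlap on the 2 strands, and 4 to GCGTG. In CA9 the only match, to ACGTG on the opposite strand, began 18 bases before the start. The EGLN3 window held neither motif, which says only that these letters are not in this window. Among the other genes with a window, EGLN1 had 1 ACGTG that began 13 bases before the start, and ADM and HIF1A had 1 GCGTG each. In all, 4 of the 7 genes with a window held ACGTG and 6 held either motif. Windows of 10549 tested genes held ACGTG in 31.8% and either motif in 69.3%, and all 34943 windows of the same length did so in 21.4% and 48.4%. A match is a description of letters and not a binding site.

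The knockdown itself was measured first. HNRNPK stood at 934, 967, 822 and 814 CPM (counts scaled to library size with TMM factors) in siNTC5 replicates 1 to 4 and at 250, 223, 157 and 164 CPM in siHNRNPK replicates 1 to 4. The groups did not overlap, and the siHNRNPK mean was 22.4% of the siNTC5 mean (log2 fold change -2.17, SE 0.06, edgeR adjusted p = 7.29e-15). Total counts ran from 12107280 to 23633851 in the 8 libraries. Replicates 1 and 2 of each group were made with a TruSeq kit and replicates 3 and 4 with a Ligation kit, so the fit carried a term for kit. Of 10 colon epithelium markers 7 were above 1 CPM in every library (CLDN3, VIL1 and LGALS4 were not), and of 10 markers of fibroblasts, leukocytes and endothelium only COL1A1 was. The summed epithelial markers were 2800 to 3280 CPM in siNTC5 and 4490 to 5570 CPM in siHNRNPK, the summed other markers were 45.1 to 73.2 and 77.4 to 125 CPM, and the part of these shifts in the results was not tested. In bulk RNA, fewer cells that express a gene and less RNA per cell cannot be told apart.

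**Figure D1:**
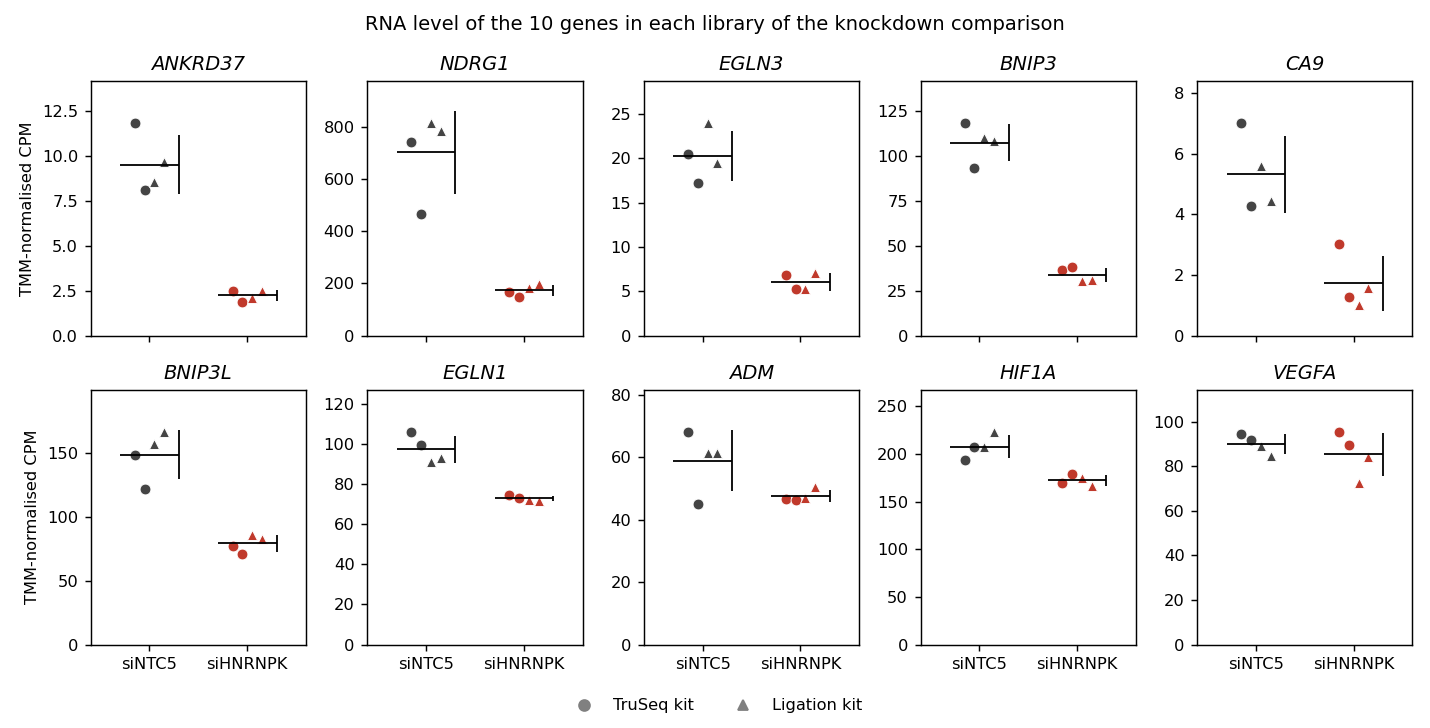
TMM-normalised CPM of the 10 genes in each of the 8 libraries, in order of log2 fold change, with each vertical axis starting at 0; circles are TruSeq and triangles Ligation libraries, the horizontal line is the group mean and the vertical line spans 1 SD each side (n = 4). The siHNRNPK libraries lie below every siNTC5 library in 8 panels, and the groups overlap for ADM and VEGFA.

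NDRG1, a cytoplasmic protein induced by hypoxia and differentiation, showed the second largest fall of the 10. It stood at 744, 467, 813 and 785 CPM in siNTC5 replicates 1 to 4 and at 166, 149, 183 and 199 CPM in siHNRNPK replicates 1 to 4. The lowest control was still 2.35 times the highest knockdown library. The siNTC5 mean was 702 ± 159 CPM and the siHNRNPK mean 174 ± 21.4 CPM (SD over 4 libraries each). The log2 fold change was -2.0 (SE 0.10, edgeR adjusted p = 2.21e-12). NDRG1 spans chr8:133237175-133297252.

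CA9, the membrane carbonic anhydrase that handles acid outside hypoxic cells, was rare in these cells. It had 118, 102, 84 and 81 counts in siNTC5 and 46, 17, 12 and 19 counts in siHNRNPK, replicates 1 to 4 in each. In CPM these were 7.0, 4.26, 5.6 and 4.43 against 3.03, 1.26, 1.01 and 1.57, and siHNRNPK replicate 1 was the highest of the knockdown libraries. The groups did not overlap, and the log2 fold change was -1.59 with an SE of 0.25, the widest of the 10 (edgeR adjusted p = 1.75e-05).

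ANKRD37, a small ankyrin-repeat protein, showed the largest fall of the 10. It stood at 11.8, 8.10, 8.53 and 9.63 CPM in siNTC5 and at 2.5, 1.86, 2.11 and 2.47 CPM in siHNRNPK, and its lowest control was 3.23 times its highest knockdown library. The mean fell to 23.5% of siNTC5 (log2 fold change -2.08, SE 0.17, edgeR adjusted p = 2.95e-09). ANKRD37 (chr4:185396841-185400723) overlaps LRP2BP and UFSP2 in RefSeq. How the counting treated strand is not stated, so reads of overlapping genes may not be told apart. LRP2BP stood at 21.2 ± 2.44 CPM in siNTC5 and 22.2 ± 1.43 in siHNRNPK (edgeR adjusted p = 0.404), and UFSP2 fell from 30.5 ± 2.13 to 23.9 ± 1.53 CPM (adjusted p = 0.000603; SD, n = 4 each).

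The mitophagy receptors BNIP3 and BNIP3L, which tether mitochondria to the autophagy machinery, both fell. BNIP3 stood at 118, 93.4, 110 and 108 CPM in siNTC5 and at 36.3, 38.0, 30.4 and 30.8 CPM in siHNRNPK. That is 31.5% of the control mean, with no overlap (log2 fold change -1.66, SE 0.08, edgeR adjusted p = 1.56e-12). BNIP3L stood at 149, 122, 157 and 166 CPM in siNTC5 and at 77.1, 71.2, 86.1 and 83.0 CPM in siHNRNPK. Its fall, to 53.4% of control, was under 2-fold, again with no overlap (log2 fold change -0.90, SE 0.06, edgeR adjusted p = 1.46e-10). BNIP3 (chr10:131967684-131981923) overlaps PPP2R2D in RefSeq, and PPP2R2D rose, from 24.7 ± 2.00 to 33.2 ± 3.62 CPM (SD, n = 4 each; edgeR adjusted p = 0.000231). BNIP3L spans chr8:26383054-26413127 and overlaps no other RefSeq gene.

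The 2 prolyl hydroxylases, which are both regulators of HIF and its targets, fell to different extents. EGLN3 stood at 20.5, 17.2, 23.9 and 19.4 CPM in siNTC5 and at 6.79, 5.20, 5.23 and 7.0 CPM in siHNRNPK. It fell to 29.9% of the control mean (log2 fold change -1.72, SE 0.12, edgeR adjusted p = 4.95e-10). EGLN1, the main hydroxylase of HIF-1α in oxygenated cells, stood at 106, 99.4, 91.0 and 92.9 CPM in siNTC5 and at 74.6, 72.9, 72.2 and 71.5 CPM in siHNRNPK. Its groups were tight and did not overlap, and it fell to 74.9% of control (log2 fold change -0.42, SE 0.05, edgeR adjusted p = 4.17e-07). EGLN3 spans chr14:33924227-33951074 and EGLN1 chr1:231363756-231422287.

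HIF1A stood at 193, 207, 207 and 223 CPM in siNTC5 and at 169, 179, 175 and 166 CPM in siHNRNPK. The groups were separate but close, with the lowest control 1.08 times the highest knockdown library (log2 fold change -0.27, SE 0.05, edgeR adjusted p = 5.06e-05). RefSeq places 3 antisense genes over HIF1A (chr14:61695513-61748258). Of these HIF1A-AS1 had no counts, and HIF1A-AS2 and HIF1A-AS3 averaged 0.328 and 0.736 CPM in siNTC5 and 0.124 and 0.306 CPM in siHNRNPK, too low to be tested.

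ADM, a vasodilator peptide, and VEGFA, the vascular endothelial growth factor, are secreted, and they were the 2 genes whose groups overlapped. ADM stood at 67.9, 44.9, 61.4 and 61.4 CPM in siNTC5 and at 46.5, 46.2, 46.9 and 50.4 CPM in siHNRNPK. Control replicate 2 lay below every knockdown library while the other 3 controls lay above them all. The test called ADM lower (log2 fold change -0.30, SE 0.09, edgeR adjusted p = 0.00584), and the call was lost in the TruSeq libraries alone, where control replicate 2 is 1 of 2 (-0.27, adjusted p = 0.139). VEGFA stood at 94.7, 91.8, 89.3 and 84.5 CPM in siNTC5 and at 95.3, 89.7, 72.5 and 84.3 CPM in siHNRNPK. The ranges overlapped and the log2 fold change was -0.08 with a 95% interval from -0.19 to 0.04 (edgeR adjusted p = 0.226). ADM spans chr11:10305073-10307397 and VEGFA chr6:43770211-43786487.

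Read against all genes, many genes changed in this comparison, so a call alone says little. The 10 were also chosen with earlier results known, so the shares and ranks below describe them and are no test. Beside the shares of lower genes given above, 35.5% of tested genes were higher and 7.47% higher by at least 2-fold, against 0 and 0 of the 10. In 28.0% of tested genes every siHNRNPK library lay below every siNTC5 library, against 8 of the 10. The median log2 fold change of the 10 was -1.24 and that of all tested genes was 0.00 to 2 decimals. From the lowest log2 fold change upwards among 13933 genes, ANKRD37 ranked 118, NDRG1 145, EGLN3 275, BNIP3 306 and CA9 362, while BNIP3L ranked 1400, EGLN1 3585, ADM 4349, HIF1A 4633 and VEGFA 6266.

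Among the controls, siNTC5 replicate 2 was the lowest library for 7 of the 10 genes (CA9, NDRG1, EGLN3, BNIP3, BNIP3L, ANKRD37 and ADM), and it was the lowest control for 32.6% of all tested genes. NDRG1 varied 1.74-fold over the 4 controls, CA9 1.64-fold and ADM 1.51-fold, against 1.12-fold for VEGFA and 1.15-fold for HIF1A. Over the knockdown libraries CA9 varied 3-fold, the most of the 10, NDRG1 1.33-fold, VEGFA 1.31-fold, ADM 1.09-fold and HIF1A 1.08-fold. Without siNTC5 replicate 2 the log2 fold change of ADM was -0.43, and without replicate 1 it was -0.18, the ends of its range over all alternatives.

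The log2 fold change was below 0 within both kits for all 10 genes, although only -0.0032 for VEGFA in TruSeq. The log2 fold change in the TruSeq libraries and then the Ligation libraries (2 against 2 each) was -1.93 and -2.08 for NDRG1, -2.16 and -2.0 for ANKRD37, and -1.34 and -1.95 for CA9. For BNIP3 it was -1.5 and -1.84, the only one of the 10 with an unadjusted p under 0.05 for the difference between kits (0.0269, edgeR adjusted p = 0.356). VEGFA was not called in TruSeq (adjusted p = 0.972) and was at -0.16 in Ligation (adjusted p = 0.0384), and the test of that difference gave an adjusted p of 0.645. The difference between kits was called by edgeR for 0.129% of tested genes (18) and for 0 of the 10. DESeq2 also called 0 of the 10. Without siNTC5 replicate 1, however, NDRG1, BNIP3 and ADM were called, each with a larger fall in the Ligation libraries (differences of -0.52, -0.52 and -0.40).

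**Figure D2:**
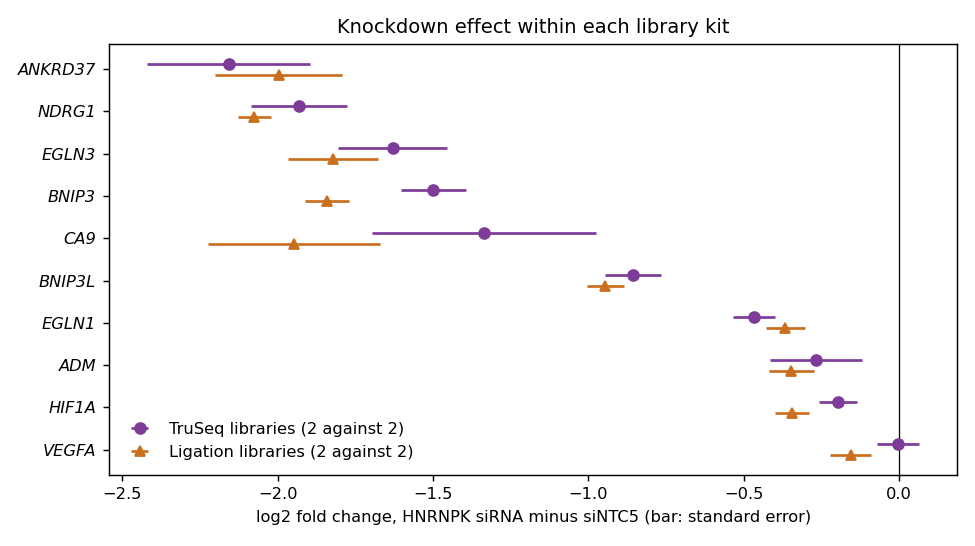
Log2 fold change (HNRNPK siRNA minus siNTC5) of each of the 10 genes within the TruSeq libraries (circles) and within the Ligation libraries (triangles), with bars of 1 standard error. All 20 points lie at or below 0, and those of ANKRD37, NDRG1, EGLN3, BNIP3 and CA9 lie below -1 in both kits.

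The second nontargeting control asks how far these genes move without HNRNPK siRNA. The Scramble libraries were purified with another kit and deposited in other count tables, with 59209169 and 55007171 counts, so effects of the control siRNA and of these differences in handling cannot be told apart. They were compared over the 25527 shared gene names, with CPM scaled over all 10 RNA libraries. Both Scramble libraries were made with the TruSeq kit. With the kit term in the fit, log2 fold changes that involve Scramble therefore rest on TruSeq replicates 1 and 2 of the other group. NDRG1 stood at 1562 and 1755 CPM in Scramble replicates 5 and 6 against 468 to 818 CPM in siNTC5 on this scale. The TruSeq siNTC5 replicates 1 and 2 stood at 741 and 468 CPM. The log2 fold change was 1.41 (SE 0.15, edgeR adjusted p = 3.44e-06). CA9 stood at 14.8 and 12.1 CPM against 4.26 to 6.97, also above every siNTC5 library (log2 fold change 1.25, adjusted p = 0.000114). The log2 fold change of CA9 has a 95% interval from 0.82 to 1.68, and it was 0.89, under 2-fold, without siNTC5 replicate 2.

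VEGFA, BNIP3L and EGLN3 were also higher in Scramble, with both libraries above every siNTC5 library and log2 fold changes of 0.57, 0.60 and 0.56. VEGFA stood at 141 and 144 CPM, BNIP3L at 189 and 232 CPM and EGLN3 at 27 and 30 CPM. ANKRD37 went the other way, at 5.47 and 7.0 CPM against 8.11 to 11.8 in siNTC5 (log2 fold change -0.70, edgeR adjusted p = 0.00457), a call lost without Scramble replicate 5 (-0.53, adjusted p = 0.0564). BNIP3 at 104 and 125 CPM (log2 fold change 0.07), EGLN1 at 99.3 and 119 CPM (0.04), HIF1A at 224 and 229 CPM (0.13, adjusted p = 0.0699) and ADM at 37.0 and 53.1 CPM (-0.36, adjusted p = 0.0828) were not called. ADM was called lower in 6 of 15 alternatives, and its value ran from -0.64 without Scramble replicate 6 to -0.05 without siNTC5 replicate 1. On unscaled totals BNIP3, EGLN1 and HIF1A turned to -0.11, -0.14 and -0.05. Of the 10 genes 5 were higher and 1 lower, where 35.1% of the 14263 genes tested were higher and 33.5% lower. HNRNPK itself was slightly lower in Scramble than in siNTC5, at 815 and 851 CPM (log2 fold change -0.24, adjusted p = 0.00159), which was not called without the kit term (-0.13, adjusted p = 0.224).

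Against Scramble, HNRNPK siRNA again went with lower values. Of the 10 genes 9 were lower and 6 by at least 2-fold, where 42.8% of the 14217 genes tested were lower and 19.9% by at least 2-fold. The median log2 fold change of the 10 was -1.5 and that of all tested genes -0.04. This comparison shares the siHNRNPK libraries with the first and the Scramble libraries with the second, so it is not independent of them. Side by side, the log2 fold change against siNTC5 and then against Scramble was -2.0 and -3.39 for NDRG1, -1.59 and -2.61 for CA9, -1.72 and -2.24 for EGLN3, and -0.90 and -1.5 for BNIP3L. It was -1.66 and -1.62 for BNIP3, -2.08 and -1.5 for ANKRD37, -0.42 and -0.56 for EGLN1, and -0.27 and -0.38 for HIF1A. In each pair the value against siNTC5 covers both kits and the value against Scramble rests on TruSeq libraries, so the pairs are not strictly alike.

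VEGFA was called lower against Scramble (-0.62, SE 0.06, edgeR adjusted p = 9.26e-11), where it was not called against siNTC5. Its level was higher in Scramble. ADM was not called (0.05, adjusted p = 0.678), and it was the gene with the most unequal Scramble libraries: without replicate 5 it was lower (-0.21, adjusted p = 0.0275) and without replicate 6 higher (0.32, adjusted p = 0.000889). Both Scramble libraries lay above every siHNRNPK library for every one of the 10 genes except ADM, where 1 of 2 did. The share of all tested genes separated in this way was not computed, here or between the controls. Of all tested genes 42.8% were called lower against Scramble, so little is read from this separation. BNIP3, EGLN1 and HIF1A were lower against both controls. Between the controls EGLN1 was called in 0 of 15 alternatives, BNIP3 in 1 (higher in Scramble without siNTC5 replicate 1, 0.24, edgeR adjusted p = 0.0132) and HIF1A in 4, all higher in Scramble, with 0.18 as the largest log2 fold change.

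**Figure D3:**
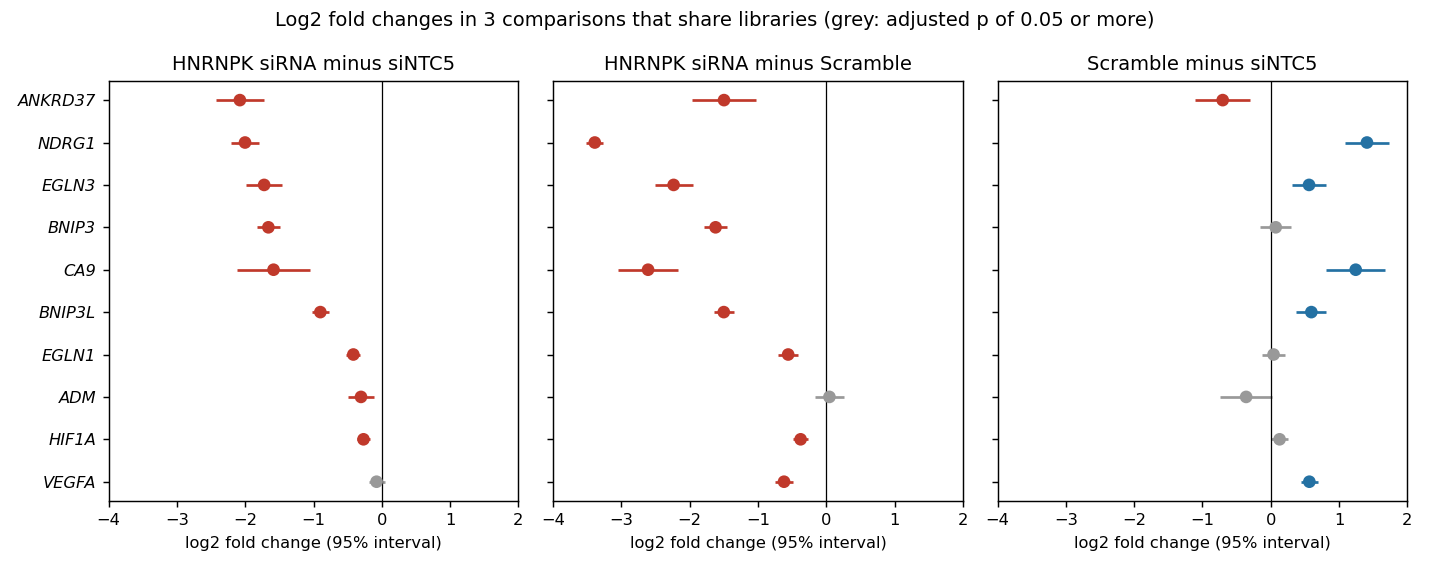
Log2 fold changes of the 10 genes with 95% intervals in 3 comparisons that share libraries: HNRNPK siRNA minus siNTC5 (left), HNRNPK siRNA minus Scramble (middle) and Scramble minus siNTC5 (right); red is lower, blue higher and grey an edgeR adjusted p of 0.05 or more. NDRG1 is at -2.0, -3.39 and 1.41, and VEGFA moves from grey at -0.08 on the left to red at -0.62 in the middle.

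Beyond the 10, glycolysis genes known as HIF targets, a list also chosen with earlier results known, were lower almost throughout. Of 22 such genes, all tested, 21 fell and 1 rose (SLC2A3, a glucose transporter, log2 fold change 0.40, named after its value was seen), with a median of -0.73, and 9 fell by at least 2-fold, where 36.1% of all tested genes were lower and 8.28% by at least 2-fold. PFKFB4, which makes the activator of phosphofructokinase, stood at 127 ± 9.29 CPM in siNTC5 and 17.0 ± 2.73 in siHNRNPK (SD, n = 4 each; log2 fold change -2.89). ENO2, an enolase, fell by 2.46, SLC16A3, the lactate exporter MCT4, by 1.56, and PFKL, the liver-type phosphofructokinase, by 1.54 on the log2 scale. Against Scramble 21 of the 22 were lower and 0 higher, where 42.8% of all tested genes were lower. Between the controls 17 were higher in Scramble and 4 lower, where 35.1% of the 14263 genes tested were higher and 33.5% lower. One of the 17, ALDOA, an aldolase named after its values were seen, stood at 42.0 to 94.8 CPM in siNTC5 and at 3974 and 4300 CPM in Scramble (log2 fold change 6.22). ALDOA overlaps LOC112694756 in RefSeq, and the part of the separate count tables in this difference was not tested. ALDOA is also among the 9 genes counted above as lower by at least 2-fold against siNTC5 (-1.15), although its groups overlapped. On the scale of the 8 libraries siNTC5 replicate 2 stood at 41.9 CPM and siHNRNPK replicate 3 at 44.1 CPM.

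Of 40 other HIF targets 35 were tested, and 26 fell, 6 rose and 3 were not called (median log2 fold change -0.60), where 36.1% of all tested genes were lower and 35.5% higher. The largest falls were in GYS1, muscle-type glycogen synthase (-2.71), LOXL2, a collagen crosslinking enzyme (-2.54), ANGPTL4, a secreted lipase inhibitor (-2.13), and KDM4B, a histone demethylase (-2.02). LOXL2 stood at 82.9 ± 22.4 CPM in siNTC5 and 13.9 ± 1.86 CPM in siHNRNPK, and GYS1 at 126 ± 5.6 and 19.2 ± 4.42 CPM (SD, n = 4 each). STC2, a secreted glycoprotein, rose (1.27), as did TFRC, the transferrin receptor (1.05), and VLDLR, a lipoprotein receptor (1.04), so the fall did not extend to every known target. VLDLR was near 1 CPM, with a siNTC5 mean of 0.644 CPM. Against Scramble 27 of 36 tested were lower and 5 higher, beside 42.8% of all tested genes lower, and STC2 was lower there (-0.31), opposite to its direction against siNTC5.

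Genes of the oxygen-sensing machinery moved in both directions. Of 19 genes 17 were tested, and 9 rose, 6 fell and 2 were not called, with a median log2 fold change of 0.14 (7 rose and 7 fell on unscaled totals). Of all tested genes 35.5% were higher and 36.1% lower, so the count of falls is near the background. EPAS1, which encodes HIF-2α, fell from 84.6 ± 6.02 to 53.7 ± 3.42 CPM (SD, n = 4 each; log2 fold change -0.65). ARNT was not called (-0.09, edgeR adjusted p = 0.107). VHL, which captures hydroxylated HIF-1α, rose (0.45), and so did HIF1AN, the asparaginyl hydroxylase that blocks coactivator binding (0.36), and CITED2, which competes with HIF for the coactivators (1.06). The other genes that rose, named after their values were seen, include the coactivator genes EP300 (0.27) and CREBBP (0.14). The rest were SIAH1 (0.49), CUL2 (0.23), SIAH2 (0.21) and ELOC (0.14). The rises were thus not confined to genes that act against HIF, and their effect on HIF was not tested. P4HTM, a transmembrane prolyl hydroxylase, fell by 2.31. EGLN2, the remaining hydroxylase of the family, had 0 or 1 counts in every one of the 8 libraries and did not pass the filter. In RefSeq EGLN2 overlaps the readthrough gene RAB4B-EGLN2, and how reads of overlapping genes were counted is not stated. These counts therefore do not show that EGLN2 RNA was absent. Against Scramble EPAS1 was lower (-1.49) and CITED2 and HIF1AN were higher (0.71 and 0.87), while VHL was lower (-0.42).

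**Figure D4:**
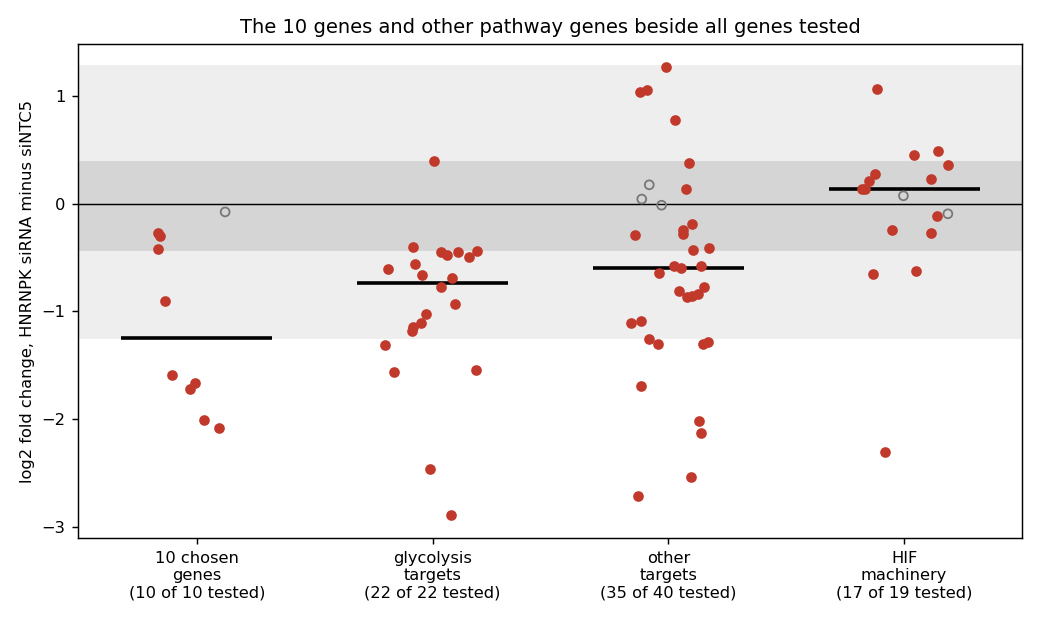
Log2 fold change (HNRNPK siRNA minus siNTC5) of each tested gene of the 10 chosen genes, 22 glycolysis targets, 40 other targets and 19 machinery genes; filled points have an edgeR adjusted p under 0.05, thick lines are medians, and the bands hold the middle 50% and 90% of all tested genes. The medians are -1.24, -0.73, -0.60 and 0.14, with P4HTM the low point of the machinery.

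The chromatin data place the 10 genes outside every called domain. The series has domains of lamin B1, a protein of the nuclear envelope, and of H3K9me3 and H3K27me3, histone marks of silent chromatin, in control and HNRNPK siRNA cells, and of H3K9me2 in control cells, with 1 list each and thus no replicate check. None of the 10 gene bodies overlapped a domain in any of the 7 lists. Neither did the 10 kb around the start of the 7 genes with a promoter window. Of the 13481 tested genes with a position, those that overlapped a domain made up 4.06% for lamin B1 in control cells and 3.46% after HNRNPK siRNA. The shares were 4.35% and 9.56% for H3K9me3, 14.9% and 12.9% for H3K27me3, and 1.6% for H3K9me2. Most tested genes thus lay outside the domains of each list, and nothing particular to these 10 is read from 0 of 10.

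The smallest gaps over the 7 lists were to H3K27me3 domains. A control domain lay 8.1 kb from BNIP3 (chr10:131990001-132205000), and after HNRNPK siRNA the nearest began 13.1 kb away. NDRG1 lay 12.2 kb from a control domain and 17.2 kb from the nearest after HNRNPK siRNA. Domain edges fall on steps of 5 kb, so each of these shifts is 1 step. For lamin B1 the nearest gap was 114.2 kb, at EGLN3 in control cells, and 107.7 kb, at BNIP3, after HNRNPK siRNA. The median lamin B1 gap over the 10 genes was 400 kb in control cells and 2036 kb after HNRNPK siRNA. At EGLN1 the nearest H3K9me3 domain was 1287.7 kb away in control cells and 17.7 kb away after HNRNPK siRNA (chr1:231440001-231510000). The same gap went from 3207.6 to 200.1 kb at ADM and from 4583.5 to 1265.2 kb at VEGFA, which was not called in RNA, and it was 2517.7 and 2487.2 kb at NDRG1. Over the 10 genes the median gap to an H3K9me3 domain was 1168 kb in control cells and 382 kb after HNRNPK siRNA, and it was 180 and 184 kb for H3K27me3. Gaps were not measured for all tested genes. The share of tested genes that overlapped an H3K9me3 domain also differed, at 4.35% and 9.56%. Nothing particular to the 10 is therefore read from these gaps.

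**Figure D5:**
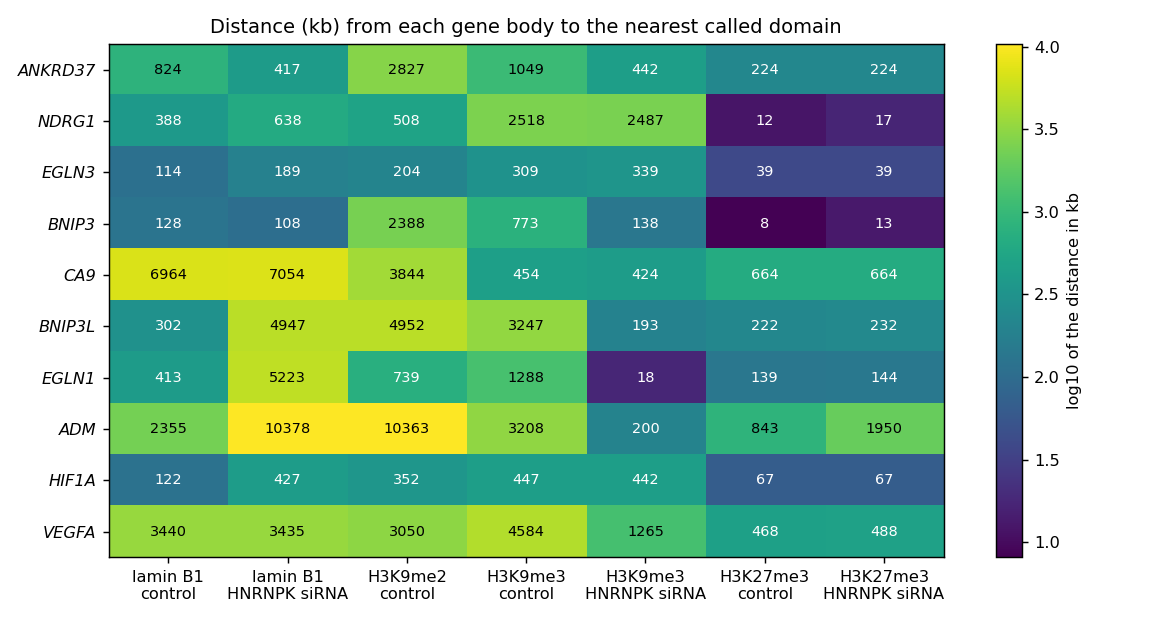
Distance in kb from the body of each of the 10 genes (rows, ordered by log2 fold change) to the nearest domain in each of the 7 lists (columns), with colour on a log10 scale. The smallest values are 8 kb for BNIP3 and 12 kb for NDRG1, both to control H3K27me3 domains, and no value is 0.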

How the data were processed

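RNA was measured in 10 libraries and chromatin in 35 immunoprecipitation or input samples of HCT116 cells. The authors deposited raw counts per gene symbol, made with STAR 2.7.1a, featureCounts and, for the 8 libraries of the main table, Subread 2.0.6 on hg38, per the submitters' processing notes; those of the Scramble libraries name both hg19 and hg38, and the strand counted and the annotation are not given in the sources used here. The authors also deposited 7 domain lists with a score per domain, of unknown unit and used only to rank domains within a list, from Bowtie2 2.5.1 alignments to hg38, per the same notes; the caller and pooling are not given there.

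Counts were filtered with filterByExpr, scaled by TMM and tested in edgeR 4.0.16 (R 4.3.3) with treatment and kit, with Benjamini-Hochberg adjustment over all genes tested and a threshold of 0.05. The standard error is the absolute log2 fold change over the square root of F. The same code was tested on simulated counts. DESeq2 1.42.0 was an alternative, beside other scalings and filters, no kit term, a replicate block, each kit alone, Scramble as added controls and each library left out. Same-numbered libraries deviated together from their group means (replicates 1 to 4 gave correlations over genes of 0.10, 0.42, 0.34 and 0.27). After the kit effect was removed the correlations were -0.19, -0.16, -0.28 and -0.25. Genes are not independent replicates. Removing fitted kit and group means itself pulls such correlations below 0 when libraries are independent, so the negative values are not read as pairing. Every value before the kit effect was removed reaches the limit of 0.1 set for treating numbers as pairs. Replicates of one number also share a kit, however, and the labels tie no number to a culture or day. CPM means carry the SD over libraries. Counting error limits low genes, such as CA9 with 12 to 118 counts.

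Domains were compared with RefSeq gene positions on GRCh38, which is hg38, by any overlap of at least 1 base. Named genes are HNRNPK, the 10 genes, EPAS1, ARNT, VHL, HIF1AN and EGLN2, and of each list up to 4 genes per direction with a log2 fold change of at least 1. Other genes of the lists are marked as named after their values were seen. The 10 genes and the lists were chosen with earlier results of these data known.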

Additional observations from a re-analysis of the deposited data

Results flagged for a closer look

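In siHNRNPK, ADM was 50.4 CPM in replicate 4, apart from 46.2 to 46.9 CPM in the other 3 libraries. VLDLR was 1.73 CPM in the same replicate and 1.19 to 1.26 CPM in the others. Both stand out by Dixon's ratio, which was applied to 56 groups and marked 2; chance marks about 1 group in 20. Among the named genes, GYS1 was the only one whose knockdown effect differed between kits by a test of that difference (log2 difference -0.67, Ligation minus TruSeq, edgeR adjusted p = 0.0205). GYS1 stood at 21.4 and 24.3 CPM in the TruSeq and 15.1 and 15.9 CPM in the Ligation knockdown libraries, against 120 and 121 and 130 and 131 CPM in the matching siNTC5 libraries.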

How the results depend on the processing

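Over 19 alternatives of the knockdown comparison, 187 of 190 values of the 10 genes kept their direction and side of the threshold and 0 turned. ADM was no longer called in TruSeq alone (log2 fold change -0.27, adjusted p = 0.139) or with Scramble as added controls (-0.21, adjusted p = 0.259), and VEGFA was called lower in Ligation alone. The number of the 10 called lower ran from 8 to 10 and by at least 2-fold from 5 to 6. With a replicate block, 9872 genes were called instead of 9968, and the same count of 9 of the 10 was lower; the pairing changed no call of the 10. Against Scramble, ADM turned from 0.05 to -0.21 without Scramble replicate 5 and to 0.32 without replicate 6; 1 of the 10 was higher under upper-quartile scaling and on unscaled totals, and 0 to 1 with a library left out. Between the controls, the number higher ran from 5 to 6 and the number lower was 2 in place of 1 under upper-quartile scaling, on unscaled totals, with no filter and in 1 fit over all 10 RNA libraries, and 0 to 2 with a library left out. The median of all genes moved by -0.18 between the controls on unscaled totals, and by 0.19 and 0.20 against Scramble under upper-quartile scaling and on unscaled totals. Of the calls between the controls 51.2% were higher, and 36.3% on unscaled totals; against Scramble 47.6% were higher, and 57.6% on unscaled totals. The genes called for a difference between kits numbered 18, but 239 with no filter, 71 with DESeq2 and 6 to 598 with a library left out, with 0 to 3 of the 10; the cause was not tested. Overlap with domains stayed at 0 of the 10 in all alternatives, and ACGTG alone was in 4 of 7 windows.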
